A study of Mus musculus with 15 samples.

Results

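Submandibular salivary glands of irradiated mice were compared after transfer of the Gli1 gene or of a GFP control into the gland. All mice were adult male C57BL/6 of wild-type genotype, and glands of both groups were taken 7 days after local irradiation of the gland. The group IR+GFP received green fluorescent protein by intra-gland transfer and the group IR+Gli1 received Gli1 by the same route. Each group has 3 libraries, so 6 of the 15 libraries of the series enter the comparison, and all genes were examined. The other groups, which share in the estimate of the spread, were untreated glands (NT), irradiated glands without transfer (IR) and irradiated glands given Shh (IR+Shh). The labels give neither the vector, its dose, the species of the transferred gene, the day of transfer nor whether each library is a separate animal. The p-values therefore reflect only how far these particular samples vary, which may be technical. Group names below are those of the labels.

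Libraries 1 and 2 of both groups differed by less than sampling noise (mean chi-square per gene 0.215 to 0.337 in the 5 such pairs of the series, against 22.03 to 223 between other libraries of a group). The smaller library of the pair had more reads than the larger for 0 of 12957 genes compared in IR+GFP and 2 of 14539 in IR+Gli1. Each near-identical pair was combined and counted as 1 sample. This left 4 samples: IR+GFP 1-2, IR+GFP 3, IR+Gli1 1-2 and IR+Gli1 3. Levels below are CPM (read counts scaled to a common library total) after TMM scaling, which sets library sizes so that most genes are level. A pair of values gives sample 1-2 first and sample 3 second, and where 2 pairs are set against each other IR+GFP stands first and IR+Gli1 second.

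The Hedgehog pathway carries a signal from a secreted ligand, such as Shh, through the receptor Ptch1 and the transducer Smo to the GLI transcription factors. Gli1 is both a target of the pathway and an activator at its end. Interferons are secreted cytokines whose receptors signal through JAK kinases to STAT and IRF transcription factors, which switch on antiviral effectors, guanylate-binding and immunity-related GTPases, and the class I antigen presentation machinery. Their target promoters often hold an interferon-stimulated response element (ISRE) or a gamma-activated site (GAS). The male mouse submandibular gland stores kallikreins and Egf in androgen-dependent granular convoluted tubules, beside acini that make saliva and ducts that modify it.

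The promoters of 9 of the named genes are shown first. They are 150 bases that end just before the transcription start, 5′ to 3′ on the gene's strand, from RefSeq on GRCm38.p6. The first 5 belong to genes that were higher in IR+Gli1: the GTPases Gbp2 (chr3:142620513-142620662, plus strand), Gbp7 (chr3:142530186-142530335, plus) and Tgtp2 (chr11:49064213-49064362, minus), the class I light chain B2m (chr2:122147537-122147686, plus) and the acute phase protein Saa3 (chr7:46715677-46715826, minus). Capitals mark letters that match the ISRE pattern TTCNNTTTC or the GAS pattern TTCNNNGAA on either strand. These 5 do not stand for the higher genes at large. Each holds ISRE letters, which most promoters of higher genes lack (counts are given further below).
Gbp2: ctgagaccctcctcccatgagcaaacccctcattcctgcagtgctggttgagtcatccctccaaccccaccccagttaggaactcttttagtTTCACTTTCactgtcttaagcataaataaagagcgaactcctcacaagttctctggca
Gbp7: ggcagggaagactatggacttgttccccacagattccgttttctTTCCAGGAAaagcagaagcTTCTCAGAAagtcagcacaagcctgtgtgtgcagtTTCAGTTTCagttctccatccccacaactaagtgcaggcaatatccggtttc
Tgtp2: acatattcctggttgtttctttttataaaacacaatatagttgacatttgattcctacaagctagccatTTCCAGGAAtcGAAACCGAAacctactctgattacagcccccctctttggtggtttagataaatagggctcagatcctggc
B2m: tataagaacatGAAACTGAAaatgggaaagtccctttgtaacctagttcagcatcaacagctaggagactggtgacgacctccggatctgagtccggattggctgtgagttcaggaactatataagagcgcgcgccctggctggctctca
Saa3: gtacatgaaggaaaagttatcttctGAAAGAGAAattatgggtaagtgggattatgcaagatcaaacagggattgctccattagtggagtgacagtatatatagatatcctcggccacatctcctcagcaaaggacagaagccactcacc

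The ISRE letters began 58 bases before the start in Gbp2, 52 in Gbp7, 70 in Tgtp2, 139 in B2m and 125 in Saa3. The GAS letters began 106 and 87 bases before the start in Gbp7 and 81 in Tgtp2. The next 4 belong to kallikrein genes that were lower in IR+Gli1, all within 1 cluster on chromosome 7: Klk1b9 (chr7:43975911-43976060, plus), Klk1b27 (chr7:44052140-44052289, plus), Klk1b24 (chr7:44188086-44188235, plus) and Klk1b26 (chr7:44012528-44012677, plus). They are shown because these members fell together and their promoters resemble each other. Capitals mark GAGAATGAG, a run picked after the sequences were seen because these promoters share it.
Klk1b9: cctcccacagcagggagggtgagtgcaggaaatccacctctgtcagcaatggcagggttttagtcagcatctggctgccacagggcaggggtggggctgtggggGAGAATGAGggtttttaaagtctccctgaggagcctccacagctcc
Klk1b27: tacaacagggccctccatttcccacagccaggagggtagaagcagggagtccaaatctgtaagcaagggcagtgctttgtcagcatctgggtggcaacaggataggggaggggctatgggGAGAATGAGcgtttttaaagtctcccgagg
Klk1b24: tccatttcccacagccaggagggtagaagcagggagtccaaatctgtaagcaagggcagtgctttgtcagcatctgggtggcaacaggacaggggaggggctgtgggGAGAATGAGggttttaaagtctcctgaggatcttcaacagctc
Klk1b26: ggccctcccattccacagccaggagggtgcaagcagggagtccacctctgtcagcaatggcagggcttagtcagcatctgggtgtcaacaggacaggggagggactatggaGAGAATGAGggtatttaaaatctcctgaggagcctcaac

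Over the 206 to 246 bases that aligned, of 250 before the start, the promoters of the other Klk1b genes were 82.6% to 87.2% identical to that of Klk1b9. Reads that aligned to several places were not counted in the deposited tables, so values of closely related genes (the kallikreins, the H2-Q and H2-T genes, Tgtp1 and Tgtp2, the Gbp, Ifit, Oas and Scgb genes) rest on the reads that told them apart.

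Gene reads in the 6 libraries ranged from 18366306 to 38458518, and 17393 to 18315 genes were detected in IR+GFP against 18434 to 19656 in IR+Gli1. A single salivary gene, Mucl2, took 27.2% to 27.6% of gene reads in IR+GFP, and 12.3%, 12.3% and 17.9% in IR+Gli1 1, 2 and 3. The TMM factors were 0.865 and 0.886 in IR+GFP and 1.72 and 1.31 in IR+Gli1. Reads with several alignments were 8.22% in IR+GFP 3 and 7.53% in IR+Gli1 3, above the 2.98% to 4.79% of the other 4 libraries, so like libraries were also compared with like. Of the defining markers of the gland, Aqp5 (acini), Klk1 and Egf (granular tubules) and Krt7 and Krt19 (ducts) were present in all 4 samples. Smgc, also listed as an acinar marker, was not. It was at 1.11 and 0.0615 CPM in IR+GFP and had no reads in IR+Gli1.

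The transferred gene itself did not pass the test. Gli1 (ENSMUSG00000025407, chromosome 10, 127329882 to 127341974 of GRCm38, minus strand) had 25, 12 and 9 reads in the IR+GFP libraries and 37, 24 and 17 in the IR+Gli1 libraries. After TMM scaling its level was 0.768 and 0.554 CPM in IR+GFP, against 0.540 and 0.672 CPM in IR+Gli1. On total gene reads the 3 IR+Gli1 libraries (0.962, 0.914 and 0.878 CPM) lay above the 3 IR+GFP libraries (0.747, 0.578 and 0.490 CPM). As libraries 1 and 2 of a group count as 1 sample, this sets 2 samples against 2. After TMM scaling the ranges overlapped, and the log2 fold change was -0.16 ± 0.37 (adjusted p = 0.832, edgeR quasi-likelihood test); under total-count scaling it was 0.63. Whether reads of the transferred copy could be counted under the mouse gene is not known here, so this value is no check of the labels.

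Of 20 Hedgehog genes listed, 13 could be tested, and 1 was higher and 0 lower, beside 8.23% and 5.71% of all genes. The one that passed was Boc, a cell-surface co-receptor for Hedgehog ligands. It stood at 16.4 and 15.5 CPM in IR+GFP, against 30.1 and 25.1 CPM in IR+Gli1, a 1.73-fold difference (log2 0.79 ± 0.12, adjusted p = 0.00533). The 4 values did not overlap, but Boc did not pass without IR+GFP 1-2 (adjusted p = 0.0634). Ptch1, the receptor and a classic target of GLI proteins, was at 8.87 and 8.30 CPM in IR+GFP, against 7.64 and 10.2 in IR+Gli1 (log2 0.05 ± 0.20, adjusted p = 0.920). Gli2, another GLI factor, was at 1.15 and 1.23 CPM against 0.450 and 0.514 CPM (log2 -1.31 ± 0.40, adjusted p = 0.0611). Ptch1 and Gli2 are given for their role and were chosen after their values were seen. Shh had 0 reads in each of the 15 libraries, which in these 6 allows up to 0.0780 to 0.163 CPM of total gene reads. The median of the 13 was -0.02 with TMM and 0.78 under total-count scaling, where 7 were higher.

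Across all genes tested, 1177 of 14300 (8.23%) were higher in IR+Gli1 and 816 (5.71%) were lower at an adjusted p under 0.05. The 2 IR+Gli1 values lay apart from the 2 IR+GFP values for all 1993 of these, and each kept its direction within both like-library comparisons. The groups did not overlap for 56.1% of all genes. Where a gene that passed is said below not to overlap, this held for every gene that passed and is no further evidence. The difference was larger between the 1-2 samples than between the 3 samples. The median log2 ratio of the higher genes was 1.89 within 1-2 and 1.03 within 3, and that of the lower genes -0.82 and -0.48. In both like-library comparisons 699 genes (4.89%) were at least 2-fold higher and 155 (1.08%) at least 2-fold lower. When the test was checked on simulated counts, a larger share of calls was false than the threshold of 0.05 allows. The counts depended on single samples and were 71 higher and 20 lower without IR+GFP 1-2, 620 and 393 without IR+GFP 3, 434 and 176 without IR+Gli1 1-2, and 1704 and 1283 without IR+Gli1 3.

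**Figure D1:**
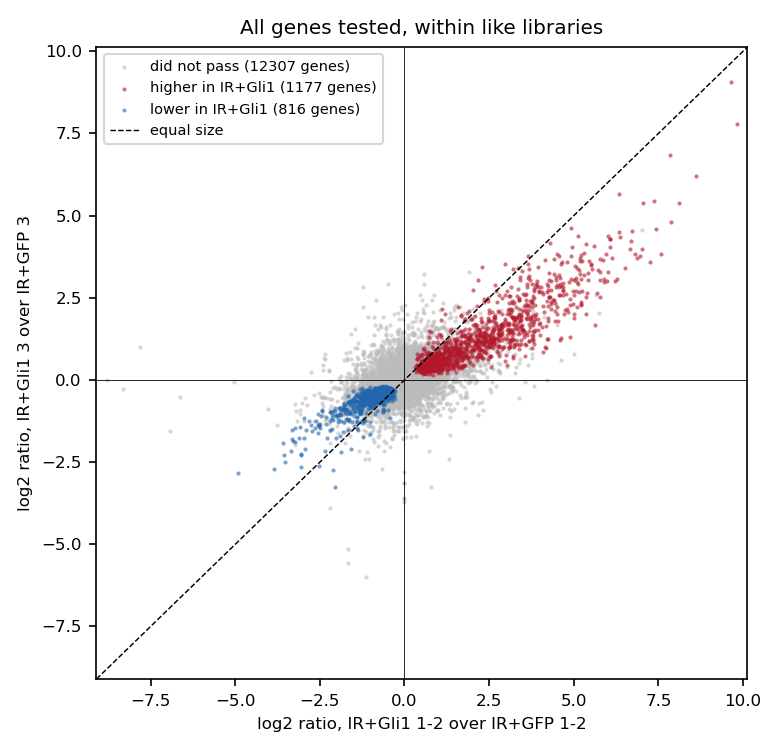
Each point is 1 of the 14300 genes tested, with its log2 ratio of IR+Gli1 1-2 over IR+GFP 1-2 on the horizontal axis and of IR+Gli1 3 over IR+GFP 3 on the vertical axis (TMM-scaled CPM, prior count 2). The 1177 genes that passed higher and the 816 that passed lower lie on the same side of 0 on both axes, with larger ratios on the horizontal one (medians 1.89 against 1.03, and -0.82 against -0.48).

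The direction of genes that changed little rests on the scaling. DESeq2 size factors gave 1153 higher and 857 lower genes, and upper-quartile scaling 1216 and 741. Scaling by total gene reads alone moved the median log2 fold change of all genes to 0.79 and gave 9660 higher and 89 lower, so that 99.1% of calls were higher against 59.1% with TMM. Under that scaling 65 genes called lower turned to higher and 84 of the 816 stayed lower. Every immune, chemokine, complement and acute phase list named below as higher kept a positive median under all 4 scalings, and the kallikreins and secretoglobins a negative one. Where a list turns, it is said beside the result.

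Of the 148 genes named by rule that passed, 31 passed without each of the 4 samples in turn (adjusted p up to 0.0468). The other 117 did not pass without IR+GFP 1-2, with adjusted p from 0.0501 to 0.266, and kept their direction. The 31 are Stat2, Ddx58, Dhx58, Adar, Ifi35, Trim25, Gbp4, Gbp7, Gbp9, B2m, H2-K1, H2-D1, Ctss, Siglec1, Ms4a7, Msr1, C1qb, C1qc, C2, Il18bp, Nfkbia, Vcam1, Saa3, Slpi, Serpina3n, Lrg1, Mmp3 and Timp1, all higher, and Dnajb9, Gal3st3 and Gclc, all lower. Counts for each list without IR+GFP 1-2 are given with it. Besides the genes so marked, Klk1, Smgc, Mucl2, Isg20, S100a8, Ly6g, Camp, Ms4a1, Pax5, Xcr1, Clec9a, Ccr7, Ccl21a, Glycam1, Madcam1, Ifna1, Ifna2, Ifna4, Ifna5, Aqp5, Krt5, Krt7, Krt19, Pip, Lpo, Lmnb1, Acta1, Ckm, Myh1 and Adipoq were named after their values were seen.

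**Figure D2:**
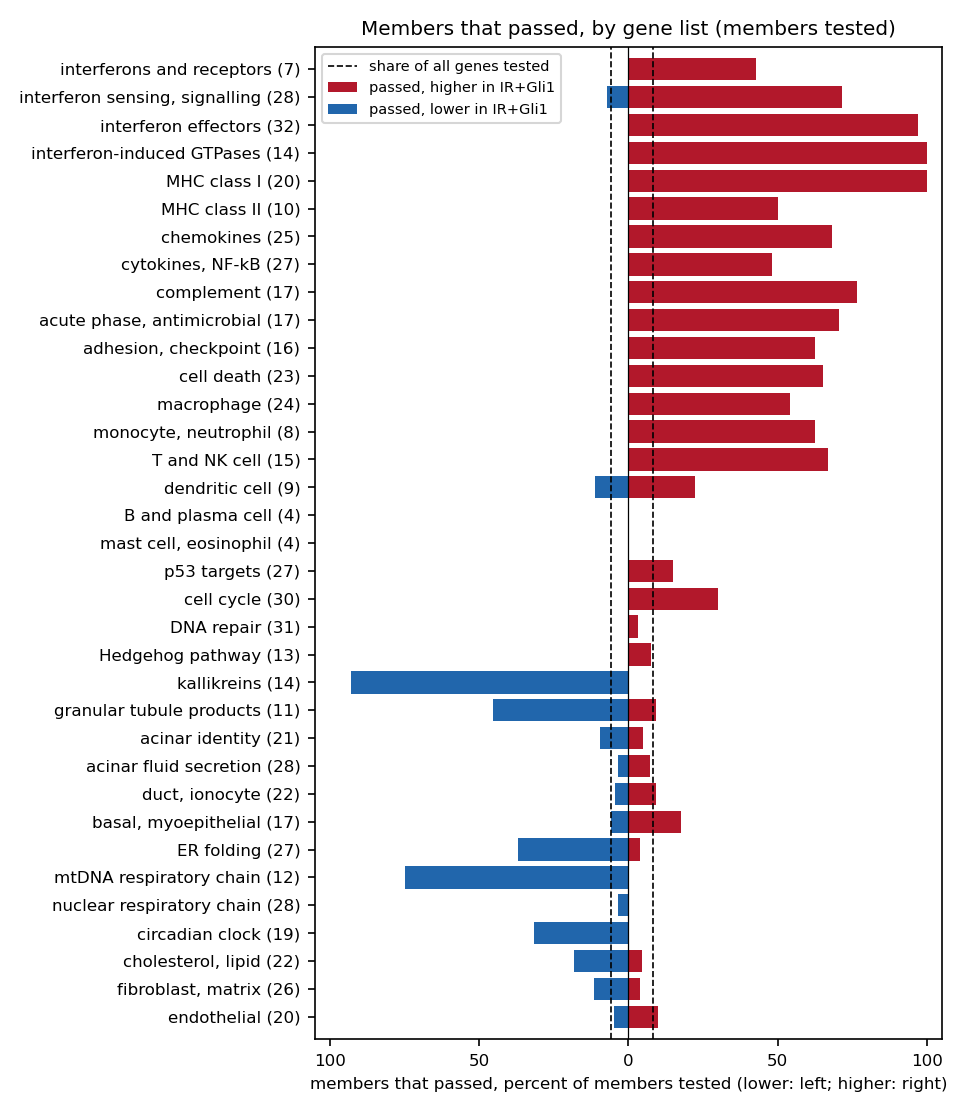
Bars give the percent of each list's tested members that passed higher (right) or lower (left) in IR+Gli1, with the number tested in brackets; dashed lines mark the 8.23% and 5.71% of all genes tested. All 14 interferon-induced GTPases and all 20 MHC class I genes were higher, and 13 of 14 kallikreins were lower.

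Interferon genes were higher in large numbers. Of 16 listed ligands and receptors, 8 had no read in any of the 4 samples, the type I ligands Ifna1, Ifna2, Ifna4 and Ifna5 among them. Ifnb1, the type I interferon of most cell types, was at 0 and 0.0615 CPM in IR+GFP, against 0.396 and 0.0395 CPM in IR+Gli1, too low to test. Ifng, the type II interferon of T and NK cells, was at 0 and 0.0615 CPM against 0.540 and 0.316 CPM and did not pass (adjusted p = 0.0890). These 2 ligands were chosen after their values were seen. Of 7 members that could be tested, 3 were higher and 0 lower, with a median log2 fold change of 0.70 against 0.0054 for all genes.

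The 3 were receptor chains. Ifngr2, the signalling chain of the type II receptor, stood at 12.5 and 19.7 CPM in IR+GFP, against 31.6 and 29.5 CPM in IR+Gli1 (log2 0.93 ± 0.20, adjusted p = 0.0163). Ifngr1, its ligand-binding chain, stood at 12.9 and 15.8 CPM against 27.2 and 21.8 CPM (log2 0.78 ± 0.16, adjusted p = 0.0136). Ifnar2, a chain of the type I receptor, stood at 9.89 and 11.9 CPM against 18.4 and 16.7 CPM (log2 0.70 ± 0.15, adjusted p = 0.0180). In each the lower IR+Gli1 value exceeded the higher IR+GFP value. Il10rb, shared by the receptors of type III interferon and of interleukin 10, had the most reads of the list and overlapped between groups, at 23.4 and 32.5 CPM against 25.3 and 34.6 CPM (adjusted p = 0.787). None of the 3 passed without IR+GFP 1-2 or without IR+Gli1 1-2.

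Of 28 sensors and signalling genes, 20 were higher and 2 lower, with a median log2 fold change of 1.87. Dhx58, which encodes the RNA sensor LGP2, was at 4.14 and 4.18 CPM in IR+GFP, against 37.8 and 22.6 CPM in IR+Gli1, 7.27-fold higher (log2 2.86 ± 0.25, adjusted p = 0.00130). Ddx58, which encodes the sensor RIG-I, was at 11.2 and 12.2 CPM against 48.7 and 34.4 CPM, 3.56-fold higher (adjusted p = 0.00130). Both had groups far apart, with the 1-2 sample of IR+Gli1 above the 3 sample.

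Stat2 (ENSMUSG00000040033, chromosome 10, 128270559 to 128292849, plus strand) joins IRF9 in the complex that binds ISREs. It was at 21.3 and 20.8 CPM in IR+GFP, against 91.4 and 67.0 CPM in IR+Gli1, 4.28 times higher within the 1-2 samples and 3.22 times within the 3 samples (log2 1.91 ± 0.16, adjusted p = 0.00130). Irf7, a factor that amplifies interferon production, had the most reads of the list. It rose from 7.46 and 13.5 CPM to 507 and 263 CPM, 37.2-fold (adjusted p = 0.00553). The groups did not overlap.

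The partner gene Irf9, chosen after its values were seen, moved the same way, at 16.4 and 23.9 CPM against 54.1 and 67.4 CPM (adjusted p = 0.00282). Irf9 was the only one of Dhx58, Ddx58, Stat2, Irf7 and Irf9 with IR+Gli1 3 above IR+Gli1 1-2. The 2 members that fell with TMM scaling, also chosen after their values were seen, were Ticam1, the TLR3 adaptor, at 24.7 and 28.0 CPM against 15.2 and 20.9 CPM (adjusted p = 0.0441), and the kinase Jak1, at 110 and 116 CPM against 84.3 and 92.4 CPM (adjusted p = 0.0333). Under total-count scaling 0 members were lower and 27 higher. Without IR+GFP 1-2, 6 of 28 were higher and 0 lower, and without IR+GFP 3 or IR+Gli1 1-2 the 2 falls did not pass either.

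The antiviral effectors rose almost without exception, with 31 of 32 higher, 0 lower and a median log2 fold change of 3.92. All 31 were at least 2-fold higher in both like-library comparisons. The summed level of the 32 was 208 and 264 CPM in IR+GFP, against 2724 and 1493 CPM in IR+Gli1, beside 189 to 223 CPM in IR and 237 to 304 CPM in NT. The 3 of smallest adjusted p were not the steepest. Adar, the double-stranded RNA editor, was at 27.3 and 28.0 CPM against 79.0 and 62.8 CPM, 2.56-fold higher (adjusted p = 0.00130). Trim25, the ubiquitin ligase that activates RIG-I, was at 25.0 and 29.3 CPM against 78.9 and 64.2 CPM, 2.64-fold higher (adjusted p = 0.00148). Ifi35, an interferon-induced leucine-zipper protein, was at 7.34 and 8.43 CPM against 35.4 and 22.7 CPM, 3.71-fold higher (adjusted p = 0.00183). In these 3 the values within a group lay close together.

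Ifi27l2a, a small interferon-induced membrane protein with the most reads of the list, was at 29.9 and 43.9 CPM in IR+GFP, against 749 and 525 CPM in IR+Gli1 (log2 4.11 ± 0.58, adjusted p = 0.00855). Oas3, which makes the second messenger of RNase L and was chosen after its values were seen, was 152-fold higher within 1-2 and 12.1-fold within 3. The member that did not pass was Isg20, an exonuclease, at 6.27 and 5.60 CPM against 17.4 and 8.89 CPM (adjusted p = 0.423). In the fit without IR+GFP 1-2, 8 of 32 passed, and between 26 and 30 passed without 1 of the other 3 samples.

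All 14 interferon-induced GTPases that could be tested were higher, with a median log2 fold change of 4.09. Their summed level was 45.3 and 56.6 CPM in IR+GFP, against 904 and 388 CPM in IR+Gli1. Gbp2, with the most reads, was at 4.05 and 5.47 CPM against 242 and 69.1 CPM, 58.8-fold higher within 1-2 and 12.5-fold within 3 (log2 5.05 ± 0.67, adjusted p = 0.00852). Gbp4 was at 0.597 and 0.923 CPM against 45.2 and 19.4 CPM, 43.6-fold higher (adjusted p = 0.00204). Gbp7, whose promoter above holds 1 ISRE and 2 GAS matches, was at 2.77 and 3.57 CPM against 24.2 and 16.2 CPM, 6.43-fold higher (adjusted p = 0.00216).

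These guanylate-binding proteins coat pathogen membranes. Tgtp2, an immunity-related GTPase, was among the 10 largest rises of the comparison, at 0.512 and 0.246 CPM against 17.4 and 7.82 CPM, and its rise was of like size within 1-2 (30.0-fold) and within 3 (24.8-fold). Of the 14, 5 passed without IR+GFP 1-2, Gbp4, Gbp7 and Gbp9 among them.

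**Figure D3:**
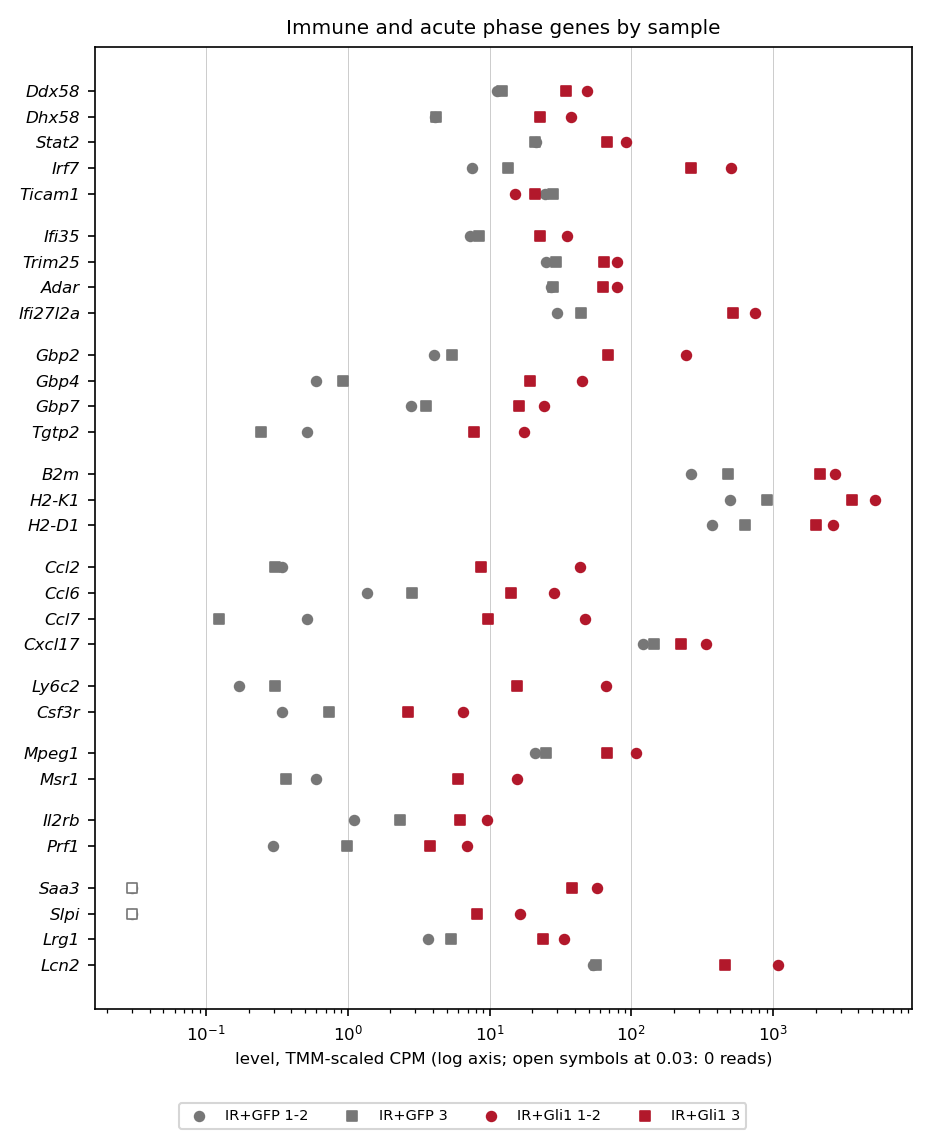
Levels of 30 immune and acute phase genes in the 4 samples, in TMM-scaled CPM on a log axis; grey symbols are IR+GFP, coloured symbols IR+Gli1, circles sample 1-2 and squares sample 3, and open symbols stand for 0 reads. The IR+Gli1 symbols lie to the right of the IR+GFP symbols in every row except Ticam1, which has them to the left with TMM scaling and was not called lower under total-count scaling.

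Class I antigen presentation was higher throughout. All 20 listed genes passed as higher, with a median log2 fold change of 2.61, and 17 were at least 2-fold higher in both like-library comparisons. B2m, the light chain, was at 262 and 484 CPM in IR+GFP, against 2754 and 2150 CPM in IR+Gli1 (log2 2.72 ± 0.27, adjusted p = 0.00162). The heavy chain H2-K1 was at 500 and 907 CPM against 5232 and 3580 CPM (adjusted p = 0.00250), and H2-D1 at 371 and 631 CPM against 2659 and 2017 CPM (adjusted p = 0.00236). In all 3 genes IR+GFP 3 was above IR+GFP 1-2 while IR+Gli1 3 was below IR+Gli1 1-2, so the fold was smaller within 3 (4.44, 3.95 and 3.20) than within 1-2 (10.5, 10.5 and 7.17).

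The genes that prepare peptides rose with them, given here for their role after their values were seen. Psmb9, a catalytic subunit of the immunoproteasome, was at 2.26 and 3.26 CPM against 56.7 and 25.0 CPM (adjusted p = 0.00288). Tap1, a chain of the transporter that brings peptides into the endoplasmic reticulum, was at 17.9 and 26.2 CPM against 164 and 97.3 CPM (adjusted p = 0.00282). Nlrc5, the transactivator of class I genes, was at 9.72 and 10.5 CPM against 45.8 and 31.2 CPM (adjusted p = 0.00388). No value of IR+Gli1 fell within the IR+GFP range for any of them, as for every gene that passed. Of the 20, 11 passed without IR+GFP 1-2.

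Of 10 class II presentation genes, 5 were higher and 0 lower, with a median log2 fold change of 1.03. Ctss, the protease that trims the invariant chain, was at 24.8 and 33.5 CPM in IR+GFP, against 150 and 92.2 CPM in IR+Gli1, 4.17-fold higher (adjusted p = 0.00288). H2-DMb1, part of the peptide exchange factor, was at 4.09 and 5.78 CPM against 18.6 and 12.1 CPM (adjusted p = 0.00565), and the class II beta chain H2-Ab1 at 34.4 and 50.6 CPM against 120 and 86.8 CPM (adjusted p = 0.0160). Cd74, the invariant chain and with the most reads, was at 85.2 and 143 CPM against 273 and 191 CPM (log2 1.03 ± 0.28, adjusted p = 0.0464). Its difference was 3.20-fold within 1-2 and 1.34-fold within 3. Ctss alone passed without IR+GFP 1-2, and without IR+Gli1 1-2 2 of 10 did.

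Of 25 chemokines tested, 17 were higher and 0 lower, with a median log2 fold change of 3.49. Ccl2, the main ligand of CCR2, was at 0.341 and 0.308 CPM in IR+GFP, against 43.2 and 8.77 CPM in IR+Gli1, 104.7-fold higher within 1-2 and 23.3-fold within 3 (log2 6.30 ± 0.90, adjusted p = 0.00798). Ccl7, another CCR2 ligand, was at 0.512 and 0.123 CPM against 47.2 and 9.68 CPM, 81.1-fold and 50.1-fold higher (adjusted p = 0.0111). Ccl6, a myeloid CC chemokine, was at 1.36 and 2.83 CPM against 28.7 and 14.2 CPM (adjusted p = 0.00495). All 3 were lower in IR+Gli1 3 than in IR+Gli1 1-2, and both of these stood far above IR+GFP.

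Cxcl17, a mucosal chemokine with the most reads of the list, rose from 121 and 145 CPM to 337 and 223 CPM (log2 1.08 ± 0.20, adjusted p = 0.0102). The interferon-induced CXCR3 ligands Cxcl9 and Cxcl10, chosen after their values were seen, were at 0.426 and 0.984 CPM against 49.9 and 16.8 CPM (adjusted p = 0.00863) and at 0.597 and 0.923 CPM against 49.6 and 7.90 CPM (adjusted p = 0.0227). Cxcl11, which is annotated as a polymorphic pseudogene, had 0 reads in IR+GFP, against 3.21 and 0.751 CPM in IR+Gli1. It was at least 32.3-fold higher against a floor of 3 reads over the group. Cxcl9 was 100-fold higher within 1-2 and 16.0-fold within 3, and Cxcl10 74.3-fold and 8.02-fold. No chemokine passed without IR+GFP 1-2, and 9 did without IR+GFP 3.

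Among cytokines and NF-kB genes, 13 of 27 were higher and 0 lower, with a median log2 fold change of 1.35. Nfkbia, the NF-kB inhibitor that NF-kB itself induces, was at 27.5 and 31.4 CPM in IR+GFP, against 95.1 and 80.2 CPM in IR+Gli1 (log2 1.58 ± 0.12, adjusted p = 0.00130). Il18bp, the secreted decoy for interleukin 18, was at 5.16 and 4.98 CPM against 52.5 and 29.5 CPM, 8.10-fold higher (adjusted p = 0.00130). Tnfsf10, the death ligand TRAIL, was at 1.62 and 2.64 CPM against 20.7 and 11.0 CPM, 7.56-fold higher (adjusted p = 0.00305). Both Il18bp and Nfkbia varied little within IR+GFP, and the groups did not overlap for either. Tnf was low throughout, at 0.0853 and 0.123 CPM against 3.96 and 1.11 CPM (adjusted p = 0.00642), whereas Il1b, chosen after its values were seen, was at 0.597 and 0.369 CPM against 1.15 and 0.514 CPM and did not pass (adjusted p = 0.405). Of the 27, 2 passed without IR+GFP 1-2, Nfkbia and Il18bp.

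Adhesion and checkpoint genes had 10 of 16 higher and 0 lower. Vcam1, which holds leukocytes to endothelium, was at 1.36 and 1.60 CPM in IR+GFP, against 10.4 and 9.24 CPM in IR+Gli1, 6.66-fold higher (adjusted p = 0.00155). Itgb2, the beta chain of leukocyte integrins, was at 2.17 and 2.95 CPM against 27.2 and 13.3 CPM (adjusted p = 0.00549). Lgals9, the galectin that binds TIM-3, was at 4.26 and 6.77 CPM against 57.8 and 25.0 CPM (adjusted p = 0.00581). The checkpoint ligand Cd274, chosen after its values were seen, was at 0.810 and 0.431 CPM against 18.7 and 6.36 CPM (adjusted p = 0.00812). Vcam1 alone of the 16 passed without IR+GFP 1-2.

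Complement genes had 13 of 17 higher and 0 lower, with a median log2 fold change of 2.35. C1qb and C1qc, chains of the initiator C1q, were at 14.6 and 21.4 CPM against 56.9 and 52.5 CPM and at 15.8 and 19.5 CPM against 50.4 and 49.5 CPM (adjusted p = 0.00164 and 0.00130). Both were nearly equal in the 2 IR+Gli1 samples. C2, a protease of the C3 convertase, was at 0.768 and 0.554 CPM against 3.31 and 4.07 CPM (log2 2.45 ± 0.31, adjusted p = 0.00300) and was higher in IR+Gli1 3 than in IR+Gli1 1-2, so its fold was 4.03 within 1-2 and 6.62 within 3. Clu, the secreted chaperone clusterin that restrains complement, had the most reads of the list. It was at 21.96 and 30.7 CPM against 993 and 347 CPM, 45.1-fold higher within 1-2 and 11.3-fold within 3 (log2 4.67 ± 0.56, adjusted p = 0.00556). Without IR+GFP 1-2, 6 of 17 passed, C1qb, C1qc and C2 among them and Clu not (adjusted p = 0.0772).

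Of 17 acute phase and antimicrobial genes, 12 were higher and 0 lower. Saa3 (ENSMUSG00000040026, chromosome 7, 46711998 to 46715700, minus strand), the local serum amyloid A protein, had 0 reads in each of the 3 IR+GFP libraries and 57.6 and 38.4 CPM in IR+Gli1. The IR+Gli1 libraries held 3774, 2625 and 972 reads. Against a floor of 3 reads over the group it was at least 683-fold higher (adjusted p = 0.00204). Slpi, a secreted protease inhibitor, also had 0 reads in IR+GFP, against 16.3 and 8.14 CPM, and was at least 182-fold higher (adjusted p = 0.00130). Both genes were not detected at this depth in one group and well counted in all libraries of the other.

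Ltf, the iron-binding lactoferrin, had 3, 2 and 1 reads in the IR+GFP libraries and 9437, 6419 and 750 in the IR+Gli1 libraries. On the combined samples, where libraries 1 and 2 are averaged, its ratio was 1421 with a 95% counting interval of 486 to 6892 (adjusted p = 0.0134). Lrg1, a leucine-rich glycoprotein of plasma, was at 3.67 and 5.35 CPM against 33.8 and 23.7 CPM (adjusted p = 0.00162), and the protease inhibitor Serpina3n at 0.554 and 0.554 CPM against 14.1 and 8.85 CPM (adjusted p = 0.00162). Lcn2, which binds bacterial siderophores and had the most reads, was at 53.4 and 56.0 CPM against 1079 and 456 CPM (log2 3.81 ± 0.61, adjusted p = 0.0119). Chil1, a chitinase-like lectin and one of the 10 largest rises, was at 0.171 and 0.492 CPM against 57.2 and 15.6 CPM. The median of the 17 was 3.41, or 3.20 with genes at 0 reads set to their bound. The 4 that passed without IR+GFP 1-2 were Saa3, Slpi, Lrg1 and Serpina3n. Ltf and Lcn2 did not pass without IR+GFP 3 either.

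Markers of immune cells were examined by type; in bulk samples fewer cells of a type and less RNA per cell cannot be told apart. Monocyte and neutrophil genes summed to 4.44 and 7.57 CPM in IR+GFP, against 191 and 53.6 CPM in IR+Gli1 (5.61 to 6.54 in IR), with 5 of 8 tested higher and 0 lower. Ly6c2, the surface marker of inflammatory monocytes, was at 0.171 and 0.308 CPM against 66.7 and 15.7 CPM (log2 7.48 ± 1.06, adjusted p = 0.0120). Plac8, a myeloid protein, was at 1.36 and 1.60 CPM against 79.0 and 21.2 CPM (adjusted p = 0.00836), and the receptor Csf3r at 0.341 and 0.738 CPM against 6.52 and 2.65 CPM (adjusted p = 0.00858). Chil3, a lectin of monocytes and macrophages, had 0 reads in IR+GFP, against 9.37 and 2.92 CPM in IR+Gli1, at least 97.3-fold higher.

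Of the defining neutrophil genes, Ly6g and Camp had 0 reads in all 4 samples. Others, given after their values were seen, had 0 reads in IR+GFP and some in IR+Gli1, and were not tested. Among them S100a9 was at 2.38 and 0.237 CPM in IR+Gli1, Mmp8 at 1.06 and 0.198 CPM and Cxcr2 at 0.0721 and 0.119 CPM. Mmp9 lay lower in IR+Gli1, at 0.768 and 0.677 CPM against 0.450 and 0.316 CPM, and did not pass. S100a8, a calcium-binding protein of neutrophils, had 0 reads in IR+GFP and 206 in the combined IR+Gli1 samples, where libraries 1 and 2 are averaged (3.55 and 0.356 CPM). It was at least 33.7-fold higher when IR+GFP is set to 3 reads in all, and did not pass (adjusted p = 0.189). The part of these cells in the wider immune rises was not tested. None of the 8 passed without IR+GFP 1-2.

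Macrophage genes summed to 160 and 224 CPM in IR+GFP, against 564 and 353 CPM in IR+Gli1 (191 to 197 in IR and 245 to 276 in NT). Of 24 tested, 13 were higher and 0 lower. Siglec1, an interferon-induced sialic acid receptor, was at 1.71 and 2.15 CPM against 11.3 and 8.73 CPM, Ms4a7 at 3.28 and 3.01 CPM against 17.6 and 9.95 CPM, and the scavenger receptor Msr1 at 0.597 and 0.369 CPM against 15.7 and 6.00 CPM (adjusted p = 0.00130, 0.00288 and 0.00272). Mpeg1, the pore-forming perforin-2 with the most reads, was at 21.0 and 25.0 CPM against 107 and 66.9 CPM (adjusted p = 0.00394).

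Other markers of macrophages, chosen after their values were seen, did not pass. Csf1r, the receptor all macrophages depend on, was at 15.4 and 21.0 CPM against 19.9 and 26.2 CPM (adjusted p = 0.217), and the mannose receptor Mrc1 at 5.16 and 7.20 CPM against 4.67 and 5.89 CPM (adjusted p = 0.547). The groups overlapped for both. The 3 that passed without IR+GFP 1-2 were Siglec1, Ms4a7 and Msr1.

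T and NK cell genes summed to 6.06 and 14.0 CPM in IR+GFP, against 129 and 54.2 CPM in IR+Gli1 (5.52 to 7.14 in IR), with 10 of 15 tested higher and 0 lower. Gzmb, a granule protease, was at 0.512 and 1.23 CPM against 31.7 and 12.6 CPM, the pore former Prf1 at 0.299 and 0.984 CPM against 6.92 and 3.79 CPM, and the interleukin 2 receptor chain Il2rb at 1.11 and 2.34 CPM against 9.58 and 6.16 CPM (adjusted p = 0.00705, 0.00642 and 0.00591). Defining T-cell genes, given after their values were seen, were low. Cd3e overlapped between groups, at 0 and 0.246 CPM against 0.288 and 0.119 CPM. Trac had 0 reads in IR+GFP, against 0.306 and 0.0790 CPM in IR+Gli1. Cd3d was at 0 and 0 CPM against 0.684 and 0.0790 CPM, and Cd8a at 0.0426 and 0 CPM against 0.684 and 0.119 CPM. Cd3g was at 0 and 0.123 CPM against 0.432 and 0.316 CPM, and Cd4 at 0.213 and 0.185 CPM against 0.576 and 0.435 CPM. Neither Cd3g nor Cd4 passed (adjusted p = 0.0946 and 0.185). None of the 15 passed without IR+GFP 1-2, and 5 passed without IR+Gli1 1-2.

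B and plasma cell genes summed to 4.95 and 8.92 CPM in IR+GFP, against 6.61 and 9.72 CPM in IR+Gli1, with 0 of 4 tested passing in either direction and Ms4a1 and Pax5 at 0 reads in all 4 samples. Ighm, with the most reads, was at 4.05 and 5.66 CPM against 5.55 and 6.64 CPM (adjusted p = 0.420). Of 9 dendritic cell genes 2 were higher and 1 lower. The 2 were Bst2, also an interferon effector, and the integrin Itgax, at 2.47 and 5.84 CPM against 14.6 and 14.9 CPM (adjusted p = 0.0104). The lower one was the lectin Cd209a, with 9, 6 and 6 reads in the IR+GFP libraries and 0 in each IR+Gli1 library (adjusted p = 0.00975). The chemokine receptor Ccr7 and the cross-presenting markers Xcr1 and Clec9a were too low to test. Kit, a receptor of mast cells that the gland also expresses, was at 25.5 and 27.4 CPM against 35.4 and 28.3 CPM (adjusted p = 0.316), and 0 of 4 mast cell and eosinophil genes passed. None of these lists had a passing member without IR+GFP 1-2.

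Lymph nodes lie beside this gland, so their markers were examined. Of 4 tested, 3 were higher, among them the cytokine Ltb, at 0.0853 and 0.0615 CPM against 1.96 and 0.632 CPM (ratio 20.5, 95% counting interval 6.84 to 101), and the B-cell chemokine Cxcl13, at 0.0426 and 0.123 CPM against 0.486 and 2.05 CPM (ratio 12.9, interval 4.27 to 64.1). Their adjusted p-values were 0.0192 and 0.0246, and none of the 4 passed without IR+GFP 1-2 or without IR+GFP 3. Ccl21a, the chemokine of lymph node stroma, was at 1.41 and 1.54 CPM against 0.757 and 2.09 CPM (adjusted p = 0.928), and Glycam1 and Madcam1, which mark high endothelial venules, had 0 reads in all 4 samples. Haemoglobin and other erythroid genes summed to 42.0 and 26.9 CPM in IR+GFP, against 14.7 and 10.1 CPM in IR+Gli1, with 0 of 7 passing. The part of lymph node or blood in the immune rises was not tested.

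Cell death genes had 15 of 23 higher and 0 lower. Genes of pyroptosis were among them. Casp4, the sensor of cytosolic lipopolysaccharide, was at 0.426 and 0.369 CPM in IR+GFP, against 9.06 and 2.73 CPM in IR+Gli1, 14.7-fold higher (adjusted p = 0.00676). Gsdmd, the pore protein it cuts, was at 1.45 and 1.35 CPM against 12.4 and 4.70 CPM (adjusted p = 0.00722), and Casp1, which matures interleukin 1, at 0.981 and 0.861 CPM against 9.37 and 3.48 CPM (adjusted p = 0.00829). Mcl1, a survival factor with the most reads of the list, was at 62.0 and 60.8 CPM against 113 and 75.4 CPM (log2 0.62 ± 0.17, adjusted p = 0.0370). Genes that promote death and a survival gene rose in the same samples. None of the 23 passed without IR+GFP 1-2, and 7 and 5 passed without IR+GFP 3 and without IR+Gli1 1-2.

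Targets of p53, which irradiation is known to induce, mostly did not pass: 4 of 27 were higher and 0 lower, beside the 8.23% of all genes, and 24 were higher under total-count scaling. Cdkn1a, the cell-cycle inhibitor p21, was at 24.0 and 37.3 CPM in IR+GFP, against 125 and 67.6 CPM in IR+Gli1 (log2 1.66 ± 0.30, adjusted p = 0.0131). The death effector Bax was at 30.2 and 30.1 CPM against 55.8 and 38.4 CPM (adjusted p = 0.0345), and Psrc1, a microtubule protein, at 1.71 and 1.85 CPM against 9.80 and 4.78 CPM (adjusted p = 0.00976). Ccng1, the target with the most reads, was at 303 and 306 CPM against 243 and 253 CPM and did not pass (adjusted p = 0.122, log2 -0.30 ± 0.12 with TMM and 0.49 under total-count scaling). None of the 27 passed without IR+GFP 1-2, and 1 passed without IR+Gli1 1-2.

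Of 25 senescence genes (secreted factors, cell-cycle inhibitors and lamin B1) 8 were higher and 0 lower. The 8 include Cdkn1a and also Lmnb1, the lamin whose loss is a known mark of senescence, at 2.22 and 2.64 CPM against 6.23 and 5.06 CPM (adjusted p = 0.0111). They also include the protease Mmp3, at 1.62 and 1.66 CPM against 11.1 and 8.85 CPM (adjusted p = 0.00130), and its inhibitor Timp1, at 0.469 and 0.431 CPM against 10.3 and 4.70 CPM (adjusted p = 0.00242). These 2 were the members that passed without IR+GFP 1-2. Timp2, with the most reads, was at 116 and 128 CPM against 106 and 118 CPM (adjusted p = 0.553). Cell-cycle genes had 9 of 30 higher and 0 lower. The replication helicase gene Mcm6 was at 3.33 and 4.61 CPM against 10.7 and 8.61 CPM, the DNA topoisomerase Top2a at 0.640 and 0.738 CPM against 4.29 and 2.13 CPM, and the mitotic cyclin Ccnb2 at 0.171 and 0.185 CPM against 1.12 and 0.790 CPM (adjusted p = 0.00606, 0.00764 and 0.00837). Ccnd1, the cyclin of G1, overlapped between the groups at 83.7 and 96.4 CPM against 87.3 and 101 CPM (adjusted p = 0.848). Of 31 DNA repair genes 1 was higher, beside 8.23% of all genes. It was the crosslink repair gene Fancd2 (0.171 and 0.123 CPM against 0.973 and 0.435 CPM, adjusted p = 0.03001). Under total-count scaling 25 were higher. No cell-cycle or repair gene passed without IR+GFP 1-2, and 3 cell-cycle genes passed without IR+Gli1 1-2.

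In the epithelium, the kallikreins of the granular tubules fell together under all 4 scalings. Of 14 genes 13 were lower and 0 higher, with a median log2 fold change of -1.82 (11 lower and -1.10 under total-count scaling), and 10 were at least 2-fold lower in both like-library comparisons. Their summed level was 169070 and 152473 CPM in IR+GFP, against 37650 and 70926 CPM in IR+Gli1, beside 161320 to 217804 CPM in IR and 189842 to 237542 CPM in NT. Klk1b9 (ENSMUSG00000059042, chromosome 7, 43976061 to 43980376, plus strand), a serine protease known as an Egf-binding protein, was at 20494 and 16538 CPM against 2080 and 4545 CPM, 5.59-fold lower (log2 -2.48 ± 0.37, adjusted p = 0.00545). Also among the 10 largest falls of the comparison were Klk1b27 (3547 and 3098 CPM against 296 and 828 CPM), Klk1b8 (6025 and 4791 CPM against 643 and 1306 CPM) and Klk1b24 (1299 and 1103 CPM against 129 and 380 CPM), with adjusted p of 0.0144, 0.0143 and 0.0242. Each was lowest in IR+Gli1 1-2 and still below both IR+GFP samples in IR+Gli1 3.

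Klk1b26, the kallikrein with the most reads, was at 56244 and 53267 CPM against 15080 and 26694 CPM, 2.62-fold lower (log2 -1.39 ± 0.31, adjusted p = 0.0183). The gene that did not pass was Klk1, the kallikrein that ducts of many tissues share. It was at 4141 and 3254 CPM against 2344 and 3659 CPM, and its groups overlapped (adjusted p = 0.673). The falls were smaller within 3, where the list's median log2 ratio was -1.29 against -2.52 within 1-2. None of the 14 passed without IR+GFP 1-2 (adjusted p of Klk1b9 = 0.0635), and without IR+GFP 3 or without IR+Gli1 1-2 7 did.

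Other products of the same tubules split: 5 of 11 were lower and 1 higher, with a median log2 fold change of -0.58 that turned to 0.16 under total-count scaling, where 5 were lower and 3 higher. Egf, the growth factor stored in the granules, was at 54207 and 50266 CPM against 6390 and 18711 CPM, 4.16-fold lower (log2 -2.06 ± 0.44, adjusted p = 0.0183). The cysteine-rich secretory proteins Crisp1 and Crisp3 were at 629 and 670 CPM against 74.8 and 141 CPM and at 40836 and 33837 CPM against 13000 and 17616 CPM (adjusted p = 0.00894 and 0.00927). The serine protease Prss12 was at 4.95 and 6.64 CPM against 0.576 and 1.501 CPM (adjusted p = 0.0106).

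These 4 were lower under every scaling. The growth factor Tgfa went the other way, from 4.69 and 4.61 CPM to 8.36 and 6.64 CPM (adjusted p = 0.0420). Ren1, the salivary renin and chosen after its values were seen, did not pass, at 58.9 and 44.96 CPM against 24.9 and 83.4 CPM (adjusted p = 0.972), with its highest and lowest values both in IR+Gli1. None of the 11 passed without IR+GFP 1-2, and 3 without IR+GFP 3.

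The salivary androgen-binding proteins fell too. Of 6 tested genes of secretoglobins and androgen response 3 were lower and 1 higher, also under total-count scaling. Scgb1b27 was at 34563 and 28674 CPM against 4575 and 9978 CPM, Scgb2b27 at 29529 and 26297 CPM against 4700 and 9469 CPM, and Scgb2b26 at 6989 and 4111 CPM against 739 and 1487 CPM (adjusted p = 0.00729, 0.00642 and 0.00837). The higher one was Srd5a1, the reductase that makes dihydrotestosterone, at 1.71 and 1.66 CPM against 3.91 and 3.75 CPM (adjusted p = 0.0251). None of the 6 passed without IR+GFP 1-2. Mucl2, the gene with the most reads, was at 319200 and 307100 CPM against 71870 and 137000 CPM (log2 -1.58 ± 0.35, adjusted p = 0.0176).

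**Figure D4:**
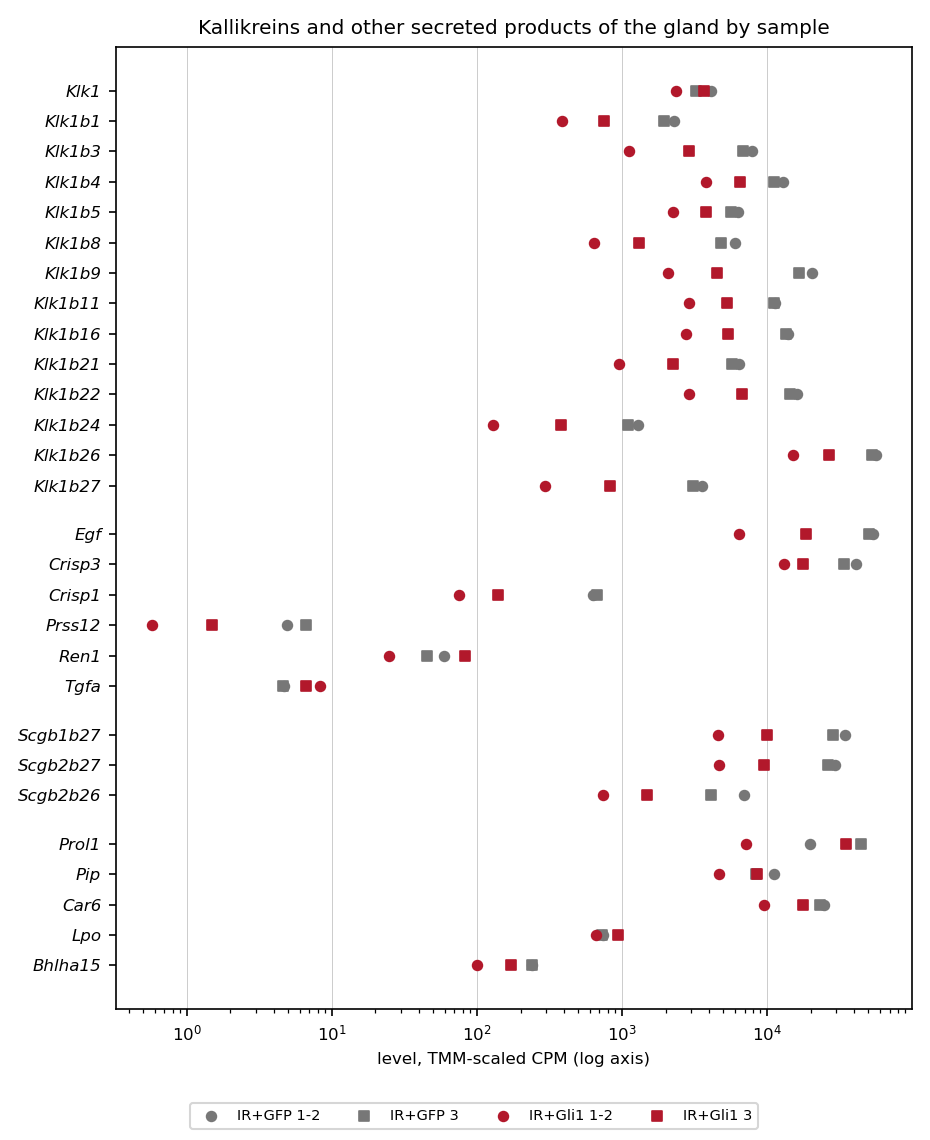
Levels of the 14 kallikreins, other granular tubule products, secretoglobins and 5 acinar genes in the 4 samples, in TMM-scaled CPM on a log axis; grey symbols are IR+GFP, coloured symbols IR+Gli1, circles sample 1-2 and squares sample 3. The 13 kallikreins that passed have both IR+Gli1 symbols to the left, farthest in sample 1-2, and the median of the list stays below 0 under all 4 scalings; Klk1, Ren1, Prol1, Pip and Lpo overlap between the groups.

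Of 21 acinar identity and product genes 2 were lower and 1 higher, beside 5.71% and 8.23% of all genes; the median log2 fold change of -0.61 became 0.04 under total-count scaling, with 0 lower and 5 higher. Bhlha15, the factor that matures secretory cells, was at 240 and 240 CPM against 100 and 173 CPM (log2 -0.82 ± 0.21, adjusted p = 0.0319; -0.08 under total-count scaling). The amylase Amy1 was at 28.8 and 25.0 CPM against 12.5 and 19.8 CPM (log2 -0.75 ± 0.19, adjusted p = 0.0313; 0.0094 under total-count scaling). The epithelial cadherin Cdh1 was higher, at 147 and 163 CPM against 246 and 231 CPM (log2 0.62 ± 0.10, adjusted p = 0.00721), as it was under all scalings. Prol1, a salivary secreted peptide gene with the most reads of the list, was at 19685 and 44803 CPM against 7189 and 35012 CPM and overlapped between groups (adjusted p = 0.624), with sample 3 above sample 1-2 in both.

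Of 28 fluid secretion genes 2 were higher and 1 lower with TMM, beside 8.23% and 5.71% of all genes. Under total-count scaling 23 were higher. The chloride channel Ano1 was at 119 and 118 CPM against 193 and 182 CPM and its relative Ano6 at 14.5 and 15.6 CPM against 26.4 and 20.3 CPM (adjusted p = 0.0188 and 0.0134). The cotransporter Slc12a2, which loads chloride into acinar cells, was at 1052 and 990 CPM against 540 and 691 CPM (log2 -0.73 ± 0.18, adjusted p = 0.0286; 0.036 under total-count scaling). No acinar gene passed without IR+GFP 1-2.

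Of 22 duct and ionocyte genes 2 were higher and 1 lower, beside 8.23% and 5.71% of all genes. The keratin Krt8 was at 249 and 258 CPM against 417 and 319 CPM and the iodide transporter Slc5a5 at 11.8 and 16.1 CPM against 29.5 and 29.4 CPM (adjusted p = 0.0282 and 0.0112). Atp6v1c2, a subunit of the proton pump, was lower under all scalings, at 34.6 and 31.7 CPM against 9.51 and 16.7 CPM (log2 -1.36 ± 0.23, adjusted p = 0.00894). The duct factor Tfcp2l1 was at 983 and 1331 CPM against 877 and 1278 CPM (adjusted p = 0.819). Of 17 basal and myoepithelial genes 3 were higher, which were Krt5, Krt17 and Trp63, and 1 was lower, Krt15.

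Krt17, a keratin of stressed epithelium, was at 12.1 and 14.3 CPM against 36.9 and 24.3 CPM (log2 1.22 ± 0.18, adjusted p = 0.00504), and Trp63, the basal cell factor, at 11.3 and 11.5 CPM against 21.9 and 17.0 CPM (adjusted p = 0.0333). Krt15 was low, at 0.853 and 0.800 CPM against 0.180 and 0.119 CPM (adjusted p = 0.0324). Acta2, the actin of myoepithelial cells, did not pass (375 and 391 CPM against 282 and 372 CPM, adjusted p = 0.424). Under total-count scaling 17 of the 22 and 12 of the 17 were higher. No gene of either list passed without IR+GFP 1-2.

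Genes for protein folding in the endoplasmic reticulum were lower with TMM scaling, 10 of 27 lower and 1 higher with a median log2 fold change of -0.58, but under total-count scaling 6 were higher, 1 lower and the median was 0.18. Dnajb9, a chaperone partner of BiP, was at 64.6 and 52.7 CPM against 26.1 and 27.3 CPM (log2 -1.14 ± 0.12, adjusted p = 0.00193; -0.35 under total-count scaling). Edem1, which sends misfolded glycoproteins to degradation, was at 146 and 128 CPM against 77.4 and 87.9 CPM (adjusted p = 0.00729; log2 -0.73 ± 0.12 against 0.044). The ubiquitin ligase Syvn1 was at 69.5 and 66.4 CPM against 40.7 and 47.0 CPM (adjusted p = 0.00837; log2 -0.63 ± 0.11 against 0.14). P4hb, the disulfide isomerase with the most reads, was at 1573 and 1534 CPM against 771 and 1131 CPM (adjusted p = 0.0319; log2 -0.71 ± 0.18 against 0.044). Ddit3, the stress factor CHOP, was higher under all scalings, at 7.42 and 6.70 CPM against 13.1 and 10.5 CPM (adjusted p = 0.0158). Without IR+GFP 1-2 1 of 27 was lower, Dnajb9, and without IR+Gli1 3 19 were.

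Respiratory chain genes of the mitochondrial genome were lower with TMM, 9 of 12 with a median log2 fold change of -0.84, and 0 of 12 passed under total-count scaling, where the median was -0.08. The summed level was 37399 and 32688 CPM in IR+GFP, against 17298 and 23090 CPM in IR+Gli1 (32686 to 34157 in IR). mt-Co3, a subunit of cytochrome oxidase, was at 4180 and 3551 CPM against 1945 and 2310 CPM (adjusted p = 0.0111), and mt-Co1, with the most reads, at 9878 and 9080 CPM against 4335 and 6296 CPM (adjusted p = 0.0402). Nuclear genes of the same chain mostly did not pass with TMM: 1 of 28, Ndufa1, was lower (72.5 and 67.7 CPM against 42.0 and 51.9 CPM, adjusted p = 0.0134; log2 -0.58 ± 0.12 against 0.19 under total-count scaling), and Atp5b, with the most reads, was at 1126 and 1099 CPM against 954 and 1107 CPM (adjusted p = 0.646). Under total-count scaling 26 of the 28 were higher. Neither list had a passing gene without IR+GFP 1-2, and without IR+Gli1 1-2 1 mitochondrial gene did.

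Of 22 cholesterol and lipid genes 4 were lower and 1 higher, against 0 and 8 under total-count scaling. Fasn, fatty acid synthase, was at 64.3 and 54.9 CPM against 31.4 and 32.6 CPM, and Sc5d, a late enzyme of cholesterol synthesis, at 125 and 115 CPM against 51.1 and 69.7 CPM (adjusted p = 0.00450 and 0.00575; log2 -0.90 ± 0.13 and -0.99 ± 0.16 with TMM, -0.11 and -0.23 under total-count scaling). The lipogenic factor Srebf1 was higher, at 71.7 and 62.7 CPM against 122 and 99.8 CPM (adjusted p = 0.0132), and Scd2 did not pass (319 and 325 CPM against 358 and 343 CPM, adjusted p = 0.618). Of 19 clock genes 6 were lower and 0 higher with TMM, but 0 lower and 6 higher under total-count scaling. Tef, a clock output factor, was at 176 and 154 CPM against 92.9 and 117 CPM (adjusted p = 0.0172), Ciart, a repressor, at 5.12 and 4.43 CPM against 1.48 and 2.29 CPM (adjusted p = 0.0334), and the receptor Rora at 13.1 and 11.2 CPM against 7.57 and 8.89 CPM (adjusted p = 0.0289), with log2 fold changes of -0.66 ± 0.14, -1.36 ± 0.35 and -0.57 ± 0.14 that became 0.11, -0.60 and 0.21. No gene of these 2 lists passed without IR+GFP 1-2.

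Antioxidant genes had 7 of 23 higher and 1 lower, and 22 higher and 1 lower under total-count scaling. Mt2, a metallothionein, was at 32.3 and 33.2 CPM against 66.1 and 59.8 CPM and the glutathione reductase Gsr at 20.6 and 23.6 CPM against 32.9 and 31.1 CPM (adjusted p = 0.00427 and 0.0104). Gclc, the rate-limiting enzyme of glutathione synthesis, was the lower one under all scalings, at 71.4 and 71.1 CPM against 26.7 and 32.9 CPM (log2 -1.26 ± 0.16, adjusted p = 0.00311). Gclc alone of the list passed without IR+GFP 1-2. Gpx1, with the most reads, was at 388 and 383 CPM against 311 and 342 CPM (adjusted p = 0.285).

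**Figure D5:**
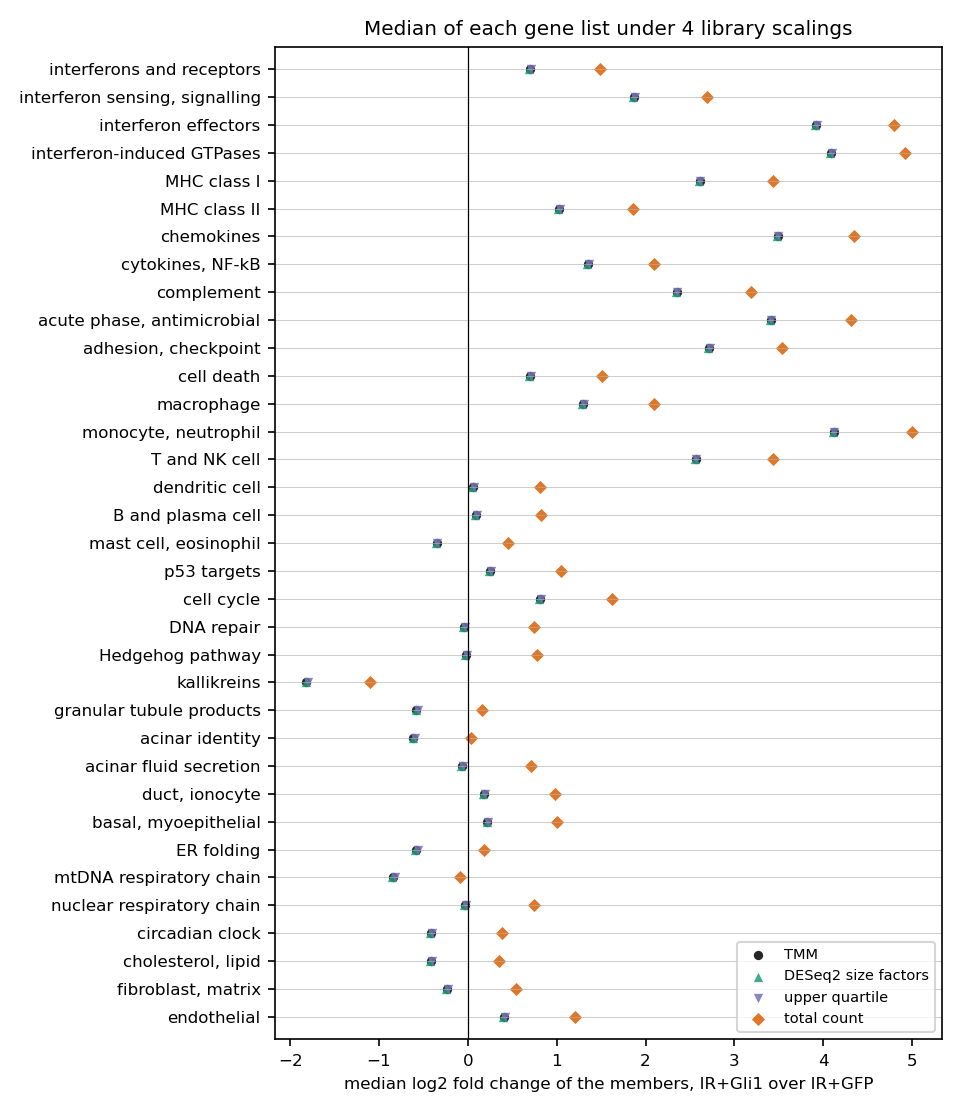
Median log2 fold change of each list's members, IR+Gli1 over IR+GFP, under TMM, DESeq2 size factors, upper-quartile and total-count scaling. The first 3 nearly coincide, and total-count scaling moves every list to the right; immune lists other than mast cell and eosinophil genes stay above 0 and kallikreins below it (-1.82 and -1.10), while ER folding (-0.58 to 0.18), circadian, lipid, acinar, granular tubule product, fibroblast, DNA repair, Hedgehog and nuclear respiratory chain lists cross 0.

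In the stroma, 2 of 20 endothelial genes were higher and 1 lower, beside 8.23% and 5.71% of all genes. Pecam1, the endothelial junction protein, was at 6.48 and 9.90 CPM against 17.4 and 15.1 CPM (adjusted p = 0.0429), and Ly6c1, an endothelial surface protein, at 5.07 and 6.58 CPM against 63.0 and 24.3 CPM (adjusted p = 0.00721). Vegfa, the angiogenic factor, was lower under all scalings, at 603 and 535 CPM against 170 and 292 CPM (log2 -1.30 ± 0.23, adjusted p = 0.00927). Of 26 fibroblast and matrix genes 3 were lower and 1 higher with TMM, beside 5.71% and 8.23% of all genes. Under total-count scaling 1 was lower and 12 higher. The collagen gene Col5a1 was at 8.61 and 10.3 CPM against 2.70 and 4.27 CPM (adjusted p = 0.0137). The cytokine Tgfb2, with the most reads, was at 421 and 450 CPM against 192 and 300 CPM (adjusted p = 0.0223; log2 -0.83 ± 0.19 against -0.08 under total-count scaling). The matricellular protein Ccn2 was higher, at 17.1 and 16.7 CPM against 36.0 and 41.8 CPM (adjusted p = 0.0108).

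Of 15 trophic factors 6 were higher and 0 lower. Csf1 and Il34, the 2 ligands of the macrophage receptor, were at 31.8 and 28.7 CPM against 70.6 and 49.9 CPM and at 17.5 and 21.5 CPM against 32.4 and 33.9 CPM (adjusted p = 0.00583 and 0.00721), and Gas6, a ligand of phagocyte receptors, at 233 and 259 CPM against 346 and 346 CPM (adjusted p = 0.0247). Of 20 immediate early and heat shock genes 2 were higher, beside 8.23% of all genes. They were Klf6 (31.4 and 33.2 CPM against 48.2 and 44.6 CPM, adjusted p = 0.0204) and Hspa8 (376 and 354 CPM against 590 and 453 CPM, adjusted p = 0.0449). No gene of these lists or of the stroma passed without IR+GFP 1-2.

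Tissue beside the gland was examined through its markers. Genes of the sublingual gland summed to 192 and 8.43 CPM in IR+GFP, against 4.16 and 4.42 CPM in IR+Gli1, beside 7.84 to 8.66 CPM in IR and 5.82 to 34657 CPM in NT. Dcpp3, with the most reads, was at 80.3 and 0.0615 CPM in IR+GFP, against 0.180 and 0.0395 CPM in IR+Gli1 and did not pass (adjusted p = 0.342), so the high value belongs to IR+GFP 1-2 alone of the 4. Smgc, a secreted mucin-like protein counted both with the sublingual genes and as an acinar marker, was at 1.11 and 0.0615 CPM in IR+GFP and at 0 reads in IR+Gli1 (adjusted p = 0.754). The member that passed was the sulfotransferase Gal3st3, at 5.37 and 5.90 CPM against 1.999 and 2.37 CPM (log2 -1.37 ± 0.19, adjusted p = 0.00404). Under total-count scaling its log2 fold change was -0.59 and it was not called. Gal3st3 did not follow Dcpp3 across samples. Its NT mean was 2.48 CPM (standard deviation 0.0274), against 8018 CPM (standard deviation 11339) for Dcpp3. Its fall is therefore no measure of sublingual tissue. The low sums (IR+GFP 3, IR+Gli1 1-2 and IR+Gli1 3) came mostly from Gal3st3 and Galnt12, the latter at 1.66, 1.69 and 1.70 CPM. Of 4 muscle genes 1 was higher, myoglobin (Mb), at 0.128 and 0.246 CPM against 5.04 and 2.41 CPM (adjusted p = 0.00382), while myosin Myh1 had 0 reads in all 4 samples. The skeletal actin Acta1 was lower in both IR+Gli1 samples and did not pass, at 2.81 and 2.09 CPM against 0.793 and 1.501 CPM (log2 -1.15 ± 0.36, adjusted p = 0.0626), and the creatine kinase Ckm did not pass (log2 -0.73 ± 0.71, adjusted p = 0.553). Of 10 fat genes 2 were higher, the receptor Pparg (0.171 and 0.185 CPM against 2.95 and 0.909 CPM, adjusted p = 0.0134) and the lipase Lipe (9.85 and 10.9 CPM against 22.3 and 16.6 CPM, adjusted p = 0.00837). The list's median log2 fold change was -4.09 (-2.49 with genes at 0 reads in IR+Gli1 at their bound), since 7 of the other 8 lay lower in IR+Gli1 without passing. Adipoq, which defines fat cells, was at 0 and 0.800 CPM in IR+GFP and 0 reads in IR+Gli1, so its reads came from IR+GFP 3 alone. Without IR+GFP 3 the median was 0.00. Their part in the results was not tested.

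The 10 largest rises among well counted genes, ranked by the smaller of the 2 like-library ratios, were Saa3, Ltf, Slpi, Slfn4, Ccl7, Ly6c2, Chil1, Tgtp2, Ms4a4c and Ccl2. Of those not yet described, Slfn4, a myeloid member of the interferon-induced Schlafen family, was at 0.171 and 0.185 CPM in IR+GFP, against 95.6 and 18.7 CPM in IR+Gli1 (log2 8.31 ± 1.25, adjusted p = 0.0114). Ms4a4c, a membrane protein of myeloid cells, was at 0.256 and 0.492 CPM against 56.5 and 13.6 CPM (adjusted p = 0.0108). Apart from Saa3 and Slpi, none of the 10 passed without IR+GFP 1-2.

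The 10 largest falls were Syt16, Faim2, Crisp1, Klk1b27, Klk1b8, Klk1b9, Sult1e1, Tmem37, Klk1b24 and Cyp2b10, 4 of them kallikreins. They were taken from genes that passed, none of which overlapped between groups, so their separation follows from the choice. Syt16, a synaptotagmin-like trafficking protein, was at 11.6 and 14.6 CPM against 0.937 and 2.53 CPM, 8.19-fold lower (adjusted p = 0.0186). Faim2, an inhibitor of Fas-induced death, was at 11.3 and 16.9 CPM against 1.30 and 3.40 CPM (adjusted p = 0.0159). Sult1e1, the oestrogen sulfotransferase, was at 47.6 and 43.4 CPM against 4.74 and 12.4 CPM (adjusted p = 0.0109). The calcium channel subunit Tmem37 was at 16.1 and 16.5 CPM against 2.70 and 5.37 CPM, and the cytochrome Cyp2b10 at 154 and 176 CPM against 33.7 and 61.0 CPM (adjusted p = 0.00404 and 0.00873). All 10 were lower under each of the 4 scalings, with both IR+Gli1 values below both IR+GFP values, and none passed without IR+GFP 1-2.

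The motifs of the promoters shown above were counted in the RefSeq windows of 250 bases before to 50 after the start, which covered 10795 of the 14300 genes with 13786 promoters. The ISRE letters were in 7.41% of these on either strand, in 174 of 1170 promoters of higher genes (14.9%) and in 47 of 849 of lower genes (5.54%). Among the lists they were in 8 of 10 promoters of the GTPases, 16 of 32 of the effectors, 5 of 19 of class I genes, 5 of 24 of sensors and signalling genes and 0 of 14 of the kallikreins. The GAS letters were in 6.88% of all promoters, 5 of 10 of the GTPases and 9 of 32 of the effectors. Both patterns open with the same 3 letters and may share bases where they overlap. The GLI letters GACCACCCA, on either strand, were in 27 promoters (0.196%), of which 1 was of a higher and 1 of a lower gene, and in none of the 10 of Hedgehog genes. The run GAGAATGAG, on either strand, was in 12 of 14 kallikrein promoters, in 10 of them within the 250 bases before the start, and in 54 of all (0.392%). It was picked because the printed kallikrein promoters share it, so this difference follows from the choice. A match describes letters in a window and is not a measured binding site.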

How the data were processed

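RNA from submandibular glands was sequenced (Illumina) after TruSeq preparation from 1 ug of total RNA, per the labels' protocols. The authors deposited raw read counts per Ensembl gene for each library. Bowtie 0.12.2, TopHat2 2.0.13, HTSeq 0.10.0, DESeq2 and the builds mm10 and GRCm38 are named in the submitters' processing notes; the strand mode is not given in the sources used here. Reads given to no gene were left out of library sizes: in the 6 libraries 2.60% to 3.81% lay outside genes and 1.86% to 3.30% overlapped more than 1. Symbols and gene coordinates came from GENCODE vM21 (37693 of 39179 genes, 96.2%, had a symbol), and promoters from RefSeq (GRCm38.p6).

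Near-identical libraries were combined as the rounded mean of their counts, which left 10 samples in 5 groups. Genes were filtered with filterByExpr, scaled by TMM and tested with edgeR 4.0.16 (R 4.3.3) by the quasi-likelihood test, with Benjamini-Hochberg adjustment over all 14300 genes and a threshold of 0.05. All 5 groups shared the estimate of the spread (common biological coefficient of variation 0.191, 5 residual degrees of freedom). Errors of log2 fold changes are standard errors from that fit. Ratios within like libraries used a prior count of 2. Where a group had 0 reads, the bound used 3 reads over the group. Bounds, counting ratios and their intervals used the counts of the combined samples, where libraries 1 and 2 are averaged. Intervals are exact for those counts and, like the floors, cover counting error only. The test was checked on 1 set of simulated counts, in which a larger share of calls was false than the threshold allows. DESeq2 1.42.0 and limma 3.58.1 (voom), other scalings, filters, blocks and left-out samples were the alternatives.

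The members and the 46 gene lists were chosen with earlier results of these data known. Genes were named by rule: Gli1, Shh, Saa3, Stat2 and Klk1b9; 10 rises and 10 falls ranked by the smaller ratio within like libraries, among genes whose higher group averaged 10 CPM or more; in each list up to 3 members of smallest adjusted p and the member with the most reads; and a member that passed against all other passing members of its list. Other genes are said to have been chosen after their values were seen. A few genes that the rule names are not reported here.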

Additional observations from a re-analysis of the deposited data

Results flagged for a closer look

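Reads that overlapped more than 1 gene, which enter no comparison, made up 3.30% and 3.29% of IR+Gli1 1 and 2 and 2.54% of IR+Gli1 3, above the 1.86% to 2.15% of the IR+GFP libraries. The cause was not tested.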

How the results depend on the processing

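Against 1177 higher and 816 lower genes, total-count scaling gave 9660 and 89, the 15 libraries as separate samples 3378 and 3140, and a control that joined IR with IR+GFP 1966 and 1641. Without a low-count filter 1249 genes were lower (1721 higher). With IR+GFP and IR+Gli1 alone in the fit, edgeR called 1 higher and 0 lower gene, with 3229 at an unadjusted p under 0.05; limma-voom with all groups called 965 and 807 and DESeq2 1136 and 970. Leaving out 1 sample gave 71 to 1704 higher and 20 to 1283 lower genes; the arm left with 1 sample was assumed to vary like the other groups. The replicate block was fitted although the labels do not say that a number marks a shared animal or batch: with 15 separate libraries it gave 3359 and 3136, and as a term for the 3 samples 1360 and 1052. Deviations of same-numbered libraries of the 2 groups correlated at 0.4628, 0.4464 and 0.4685 over 11181 genes, and those of libraries 1 and 2 with unlike numbers at 0.4545 and 0.455. Library 3 of either group correlated with libraries 1 and 2 of the other at -0.4698 to -0.4536. With near-identical libraries combined only 2 pairs remain, 1-2 with 1-2 and 3 with 3. The deviations of 2 samples from their mean mirror each other, so the correlations above amount to 1 observation. Its positive sign for like samples is a hint from the data and not from the design.

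Under total-count scaling 17 named genes changed sign: Acta2 to 0.53, Amy1 to 0.0094, Atp5b to 0.66, Ccng1 to 0.49, Ddb1 to 0.53, Edem1 to 0.044, Gpx1 to 0.54, mt-Nd3 to 0.18, Ndufa1 to 0.19, P4hb to 0.044, Prol1 to 0.036, Rora to 0.21, Slc12a2 to 0.036, Syvn1 to 0.14, Tef to 0.11, Tfcp2l1 to 0.65 and Timp2 to 0.66; Gli1 went to 0.63. That scaling moves every gene by a like amount. When 1 sample was left out, genes that had not passed changed sign, over ranges of -0.051 to 0.17 for Ccnd1, -9.84 to 1.03 for Dcpp3, -0.36 to 0.11 for Gli1, -0.15 to 0.35 for Il10rb, -2.17 to 0.11 for Prol1 and -0.41 to 0.13 for Tfcp2l1. DESeq2 size factors and upper-quartile scaling changed the call of none of 164 named genes.

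With 2 samples a group and 5 residual degrees of freedom, the precision rests on the spread of all groups. Genes of under 1 CPM rest on few reads.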
